A study of Sus scrofa with 4 samples.

Results

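Mural cells, the smooth muscle cells and pericytes that wrap blood vessels, were examined in dissociated pig pancreas by droplet-based single-cell RNA sequencing. The cells were selected on their own transcripts, and their place in the tissue, in vessels or elsewhere, was not measured. A barcode was kept when it held at least 10 unique molecular identifiers (UMIs, counted molecules) in total of MYH11, RGS5, ACTA2, TAGLN and CNN1, and more of these than of the fibroblast genes DCN, LUM and APOD. SLC4A4 (duct) had to stay under 0.3% and INS (beta cell) under 5% of the UMIs of the barcode. By this rule 509 of 11195 barcodes with at least 2000 UMIs and at most 9000 features were mural cells, 464 in primary pancreas 1 and 45 in primary pancreas 2.

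The study compared porcine pancreatic ductal organoids (PPDO) with the primary organ, using 2 libraries of each. The primary libraries came from 2 late postnatal German landrace pigs, a wild type and an INS-eGFP animal, digested with collagenase V and TrypLE on separate days. The labels do not tie a genotype to a library, and transgene features were found in beta cells of both, at 88.4 UMIs per 1000000 in primary pancreas 1 and 105 in primary pancreas 2, so no library is called wild type here. Ductal fragments were picked by hand from the first pancreas and live cells were sorted. From the second, cells binding the duct lectin DBA, INS-eGFP cells and unselected cells were sorted and pooled, so the share of mural cells (8.28% and 0.805% of barcodes, exact 95% intervals 7.57% to 9.04% and 0.587% to 1.08%) does not describe the organ, and animal, day and isolation cannot be told apart. All intervals cover counting error only.

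Smooth muscle cells shorten by myosin and actin filaments under the control of calcium and of the kinase that phosphorylates the myosin light chain, and they set the width of arteries and arterioles. Pericytes sit on capillaries, share the basement membrane of the endothelium, carry PDGF receptor beta and hold less of the contractile apparatus. In the pancreas both line the vessels of ducts, acini and islets, and hormones, nerves and nitric oxide act on them through receptors and cyclic nucleotides. No test was run on any comparison, because the members were chosen by measured values and cells of a library are not replicates. UMIs were summed per library and class, given per 1000000 UMIs (CPM), and read side by side in both libraries.

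The mural cells of primary pancreas 1 and 2 had 4664898 and 417886 UMIs in all, with a median of 8608 and 8135 per cell. The lowest member held 10 UMIs of the 5 rule genes in either library, the median 83.5 and 65.0, and the highest 1065 and 758. Only 23 and 2 members had 10 to 12 of these UMIs, while 16 and 1 barcodes just outside had 7 to 9. Of the 10 barcodes that both primary libraries share, none was a mural cell of primary pancreas 1.

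The rule genes are given as a description of the selection. MYH11, the smooth muscle myosin heavy chain, had 3115 CPM in primary pancreas 1 and 4233 CPM in primary pancreas 2. RGS5, a regulator of G-protein signalling of pericytes, had 1874 and 857 CPM, and smooth muscle actin ACTA2 had 4019 and 3412 CPM. The actin-binding proteins TAGLN and CNN1 had 5854 and 4839 CPM and 576 and 311 CPM. After thinning every cell to 2000 UMIs, TAGLN was found in 92.7% and 95.6% of mural cells, and CNN1 in 34.3% and 28.9% (98.7% and 100%, and 50.9% and 48.9%, without thinning). In the endothelial class, thinned TAGLN was found in 2.54% and 0.379% of cells and CNN1 in 0% and 0.379%. A barcode with at least 10 UMIs of the rule genes could not enter that class. These low values were thus in part set by the sorting and are no check of the selection.

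Of the given markers, 2 were not used by the rule. ITIH4, an inter-alpha-trypsin inhibitor heavy chain known as a plasma protein of the liver, had 2528 CPM in mural cells of primary pancreas 1 (95% Poisson interval 2482 to 2574) and 1819 CPM in primary pancreas 2 (1692 to 1953). In the highest other class of each library it had 10.8 CPM (fibroblast) and 1.90 CPM (immune). RERGL, a Ras-like protein of smooth muscle, had 510 and 586 CPM against 1.74 CPM in the highest other class of either library. Both genes were high in the mural cells of both pancreata and near 0 in every other class. They were given as markers with earlier results of these data known, so their levels are a description and no check of the selection. ITIH4 was found in 73.1% and 73.3% of thinned mural cells, and in 1.47% of thinned fibroblasts and 0.0976% of thinned endothelial cells of primary pancreas 1.

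**Figure D1:**
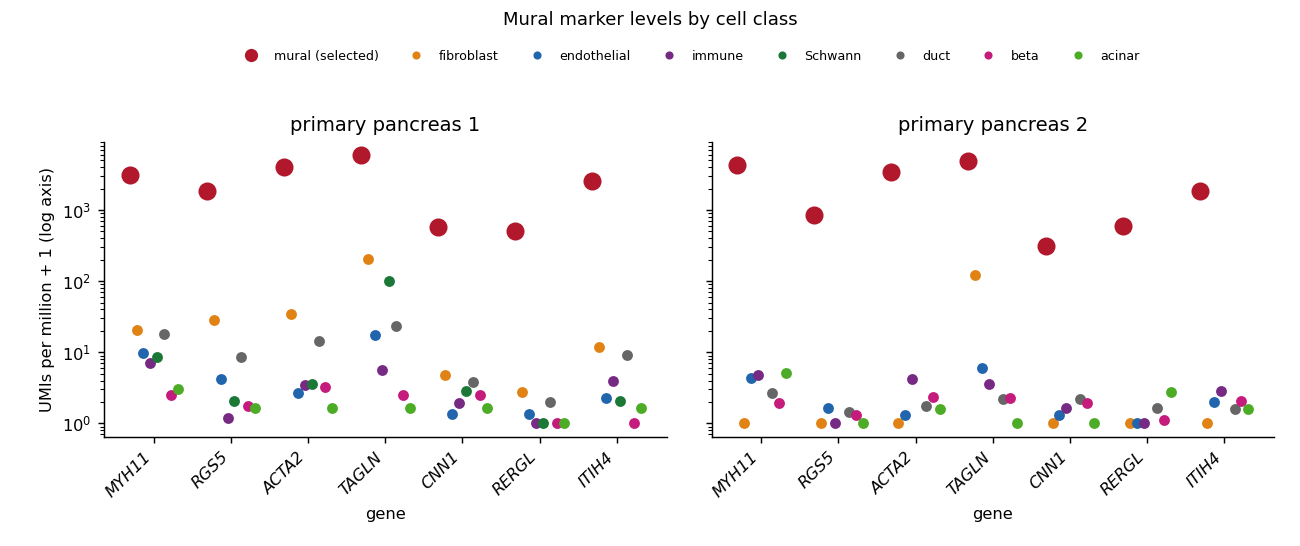
Levels of the 5 rule genes and of RERGL and ITIH4 in CPM plus 1 (log axis) in each cell class, 1 point per class and library. The large red points (mural cells) lie above those of every other class for all 7 genes in both libraries, by selection for the rule genes. Schwann cells are not drawn for primary pancreas 2, which had 1, and its fibroblasts rest on 8 cells.

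Some members did not read as mural cells alone. In primary pancreas 1, 41 members carried at least 10 UMIs of 7 endothelial markers (PECAM1, CDH5, FLT1, KDR, EGFL7, EMCN and VWF), as did 3 in primary pancreas 2, and 33 and 3 of them had more endothelial than rule UMIs. Their PECAM1 level was 2117 and 1887 CPM, against 2244 and 2262 CPM in the endothelial class and 23.0 and 50.5 CPM in the remaining mural cells. In the 41 cells, TAGLN led the rule genes with 1738 CPM, and MYH11 had 599 CPM against 3664 CPM in the other 423 members. The 3 cells of primary pancreas 2 held TAGLN as 100% of their 92 rule UMIs. The 41 cells also carried CLDN5, a tight junction protein of endothelium, at 2156 CPM and SLPI, a secreted protease inhibitor, at 1133 CPM, against 1.83 and 0.522 CPM in the other members. The 41 cells were deeper, with a median of 17155 UMIs against 8031 in the other 423 members. ITIH4 or RERGL UMIs were found in 17 of the 41 and in 391 of the 423. Mural levels of primary pancreas 1 include the 41 cells unless said otherwise. Whether these cells are doublets or endothelial cells with TAGLN was not tested. Scrublet, a doublet caller, marked 13 and 0 mural cells. Immune markers reached 10 UMIs in 20 and 0 members and Schwann markers in 4 and 0. The counts of called genes, and the named genes that lost their level, are also given without the endothelial-marked cells.

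The first comparison asked which genes set mural cells apart from every other class of the pancreas with at least 20 cells (fibroblast, endothelial, immune, Schwann, duct, beta and acinar cells in primary pancreas 1, without fibroblast and Schwann cells in primary pancreas 2). A gene was called when its mural level was at least 4-fold over the highest of these classes in both libraries, after 10 CPM were added, with at least 50 CPM in mural cells of primary pancreas 1. The 10 genes used to sort cells were left out. By this rule 62 of 3678 genes were called (1.69%), and 80, these 62 included, once the endothelial-marked members were removed. Of the 68 genes called in primary pancreas 1 alone, 62 were also at least 4-fold over the others in primary pancreas 2, as were 232 of all 3678 genes compared. Since fibroblasts of primary pancreas 2 did not enter, 56 of the 62 genes were also called over fibroblasts in both libraries in the second comparison.

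Genes of the contractile apparatus were among the called. Of 31 matched contractile genes, 27 reached the level limit and 13 were called, beside 1.69% of all genes compared. Their median log2 ratio over the highest other class was 1.87 and 2.28, against -0.530 and -0.447 over all genes compared. The list is close in kind to the rule genes, so its direction over the other classes was to some extent fixed by the selection. The medians of lists cover all matched members. The myosin light chain MYL9 had 1344 and 1213 CPM in mural cells and 39.2 and 11.5 CPM in the next class. Tropomyosins TPM1 and TPM2, which lie along actin filaments, had 3148 and 2546 CPM and 2554 and 1852 CPM, each above every other class in both libraries. DES, the muscle intermediate filament desmin, had 407 and 280 CPM, and LMOD1, an actin nucleator of smooth muscle, had 260 and 313 CPM. PPP1R14A, an inhibitor of myosin phosphatase, stood at 440 and 409 CPM, and MYOM1, a protein of the sarcomere M-band, at 172 and 175 CPM.

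The calls that come next concern regulators and signals. FHL5, a LIM-domain cofactor of transcription, had 409 CPM in mural cells of primary pancreas 1 and 644 CPM in primary pancreas 2, 147-fold and 123-fold over the next class. MYOCD, the coactivator of serum response factor that drives smooth muscle genes, had 328 and 220 CPM against 27.4 and 3.16 CPM in the next class. RCAN2, a regulator of the phosphatase calcineurin, had 2441 and 3369 CPM, with beta cells next at 288 and 208 CPM. Its log2 ratio over the next class of primary pancreas 1 was 3.04. It was 2.12 when INS and the acinar list were left out of the UMI totals. The mural levels of these genes were thus high in both pancreata, and the next class differed between genes. ANGPT1, the ligand of the endothelial receptor TEK, had 634 and 622 CPM, and the signalling protein BMP5 had 211 and 172 CPM. CCL19, a chemokine that attracts lymphocytes and dendritic cells through CCR7, had 581 and 979 CPM, against 43.7 CPM in fibroblasts and 1.90 CPM in immune cells as the next classes.

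Ion channels and receptors were called too. The cation channel TRPC6 had 460 and 385 CPM in mural cells, and KCNAB1, a subunit of voltage-gated potassium channels, 847 and 1414 CPM. AVPR1A, the vasopressin receptor of vascular muscle, had 104 and 132 CPM, 42.6-fold and 86.0-fold over the next class. GRM7, a metabotropic glutamate receptor known from synapses, had 495 and 392 CPM, and thinned UMIs were found in 44.2% and 44.4% of mural cells against 4.41% of fibroblasts and 0% of endothelial cells in primary pancreas 1. NPY1R, a receptor of neuropeptide Y chosen for mention after its values were seen, had 157 and 168 CPM, with 19.8 CPM in fibroblasts next in primary pancreas 1 and 0.078 CPM in beta cells next in primary pancreas 2. Further called genes with smaller or less known roles were ACTG2 (244 and 103 CPM), HIGD1B (268 and 182 CPM), IRAG1, a substrate of the cGMP kinase (333 and 340 CPM), LHFPL3 (557 and 833 CPM), STUM (163 and 273 CPM) and ANO3 (167 and 153 CPM). None of the 25 genes with the largest ratios fell below 100 CPM in either library.

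The second comparison set mural cells beside fibroblasts, the other stromal cell of the pancreas, of which there were 272 in primary pancreas 1 and only 8 in primary pancreas 2, where 1 UMI is worth over 10 CPM. Of 4583 genes with at least 50 CPM in either class of primary pancreas 1, 164 were at least 4-fold higher in mural cells in both libraries (3.58%) and 144 at least 4-fold lower (3.14%). With the endothelial-marked members removed they were 174 and 161, of which 150 and 130 were among the first. Of the 164 genes, 95 had 0 UMIs in the 8 fibroblasts, which by a limit of 3 counts allows up to 40.2 CPM, and 3 of these had no more than that in mural cells of primary pancreas 2. The rule itself draws the line between these classes by 8 of their genes, so part of this contrast was chosen.

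Of the contractile genes, 15 of 31 (27 reached the limit) were called higher than in fibroblasts and 0 lower, beside 3.58% and 3.14% of all genes compared. The median log2 ratio was 2.26 and 2.98, beside -0.0795 and 0.175 over all genes compared. Here too the direction of the list was to some extent fixed by the selection. The highest ratios after ITIH4 belonged to CTNNA3, an alpha-catenin that links cadherins to actin in muscle, with 2888 and 2225 CPM in mural cells against 22.9 and 0 CPM in fibroblasts. RYR2, a calcium release channel of the sarcoplasmic reticulum, had 887 and 1043 CPM against 23.3 and 93.8 CPM. NET1, an exchange factor of RhoA, had 863 and 928 CPM against 23.6 and 0 CPM. CYSLTR2, a leukotriene receptor, had 381 and 340 CPM against 6.94 and 0 CPM, and 305 CPM in endothelial cells. LRRTM3, a synaptic adhesion protein, had 314 and 160 CPM against 3.47 and 0 CPM. CLDN5 was called as well with 387 and 79.0 CPM, but without the endothelial-marked members it had 1.83 CPM in primary pancreas 1. ITIH4, RCAN2, RERGL, FHL5, PPP1R14A, MYL9, TPM2, ACTG2 and DES completed the 15 largest and were also called over every class.

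Genes of the fibroblast list were mostly lower. Of 24 genes on the fibroblast list, 22 reached the limit. Of these, 15 were called lower and 0 higher, beside 3.14% and 3.58% of all genes compared. The median log2 ratio was -2.65 and -2.91, beside -0.0795 and 0.175 over all genes compared. Collagen I, the main fibrous collagen, showed this in COL1A2 with 337 and 402 CPM in mural cells against 5403 and 10306 CPM in fibroblasts. PDGFRA, the PDGF receptor of fibroblasts, had 8.15 and 16.8 CPM against 297 and 456 CPM. Both genes were thus more than 4-fold lower in mural cells, and the receptor was near 0. The transporter ABCA6 had 3.0 and 0 CPM against 519 and 1139 CPM, ITGBL1, an integrin beta-like protein, 5.36 and 4.79 CPM against 592 and 1246 CPM, and SMOC2, a matricellular calcium-binding protein, 3.22 and 0 CPM against 365 and 241 CPM. The growth factor binding protein IGFBP6 had 46.1 and 38.3 CPM against 1828 and 1019 CPM, and the zinc finger protein BNC2 41.2 and 43.1 CPM against 1620 and 938 CPM. The lysophosphatidic acid receptor LPAR1 had 10.3 and 14.4 CPM against 431 and 134 CPM. The 15 largest further held NEGR1, ADGRD1, ADAMTSL3, LVRN, SERPINF1, TNXB, OGN and KAZN, which had between 2.14 and 49.1 CPM in mural cells and between 248 and 1035 CPM in fibroblasts of primary pancreas 1.

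**Figure D2:**
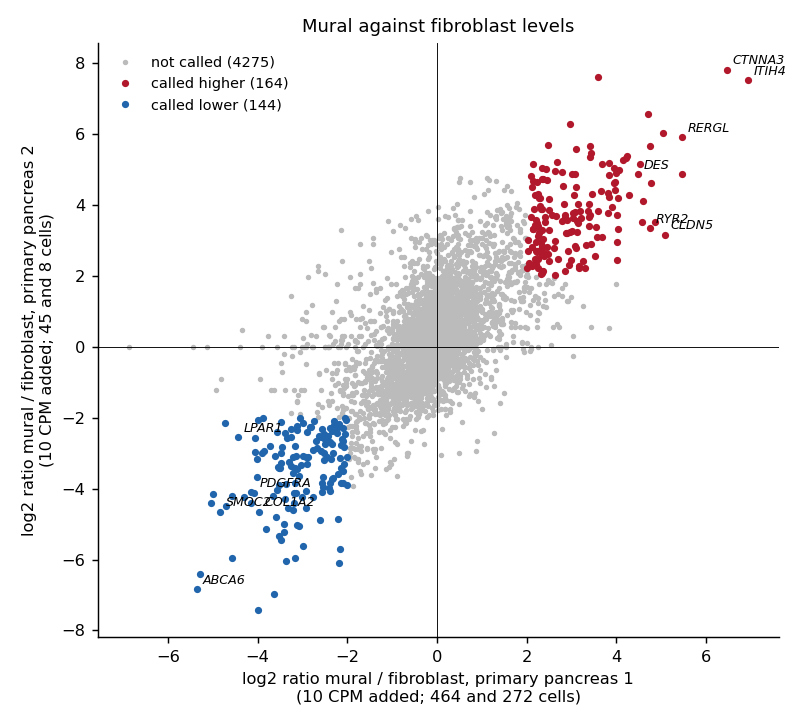
Each point is a gene, with the log2 ratio of its mural to its fibroblast level in primary pancreas 1 (x axis) and 2 (y axis), 10 CPM added. The 164 genes called higher lie in the upper right, the 144 called lower in the lower left. The vertical spread rests on 8 fibroblasts in primary pancreas 2.

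Few basement membrane genes, which pericytes share with endothelium, were called against fibroblasts. Summed over the list, mural cells of primary pancreas 1 and 2 had 2860 and 3625 CPM, against 5142 and 6741 CPM in fibroblasts. Of 19 matched genes, 13 reached the limit. Of these, 0 were called higher and 2 lower, beside 3.58% and 3.14% of all genes compared. The median log2 ratio was 0.124 and 0.113, beside -0.0795 and 0.175 over all genes compared. The collagen IV chains COL4A1 and COL4A2 had 300 and 380 CPM in mural cells of primary pancreas 1 against 234 and 348 CPM in its fibroblasts. The laminin chain LAMB1 had 48.0 and 43.1 CPM in mural cells against 281 and 415 CPM, and the linker nidogen NID1 had 43.3 and 26.3 CPM against 397 and 844 CPM.

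Of the signals exchanged with endothelium, 5 of 31 matched genes (22 reached the limit) were called higher than in fibroblasts, where 3.58% of all genes compared were, and 1, PDGFRA, lower, beside 3.14%. Beside ANGPT1 and BMP5 these were ANGPT2, the second TEK ligand (134 and 254 CPM in mural cells, 17.7 and 0 CPM in fibroblasts), and the PDGF ligands PDGFA (115 and 129 CPM against 4.86 and 0 CPM) and PDGFC (142 and 158 CPM against 7.99 and 13.4 CPM). PDGFRB, the receptor by which endothelial PDGFB recruits pericytes, had 174 and 256 CPM and was not called, since fibroblasts had 84.7 and 214 CPM. It was close to absent from endothelial cells, with thinned UMIs in 0% of them in either library against 31.9% and 44.4% of mural cells.

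Of 21 NOTCH pathway genes, 9 reached the limit and 2 were called higher than in fibroblasts, beside 3.58% of all genes compared. NOTCH3, the NOTCH receptor of mural cells, had 364 and 756 CPM against 37.8 and 0 CPM, and was the 1 gene of the list called over every class. Its target HEY2, a repressor of transcription, had 94.5 and 153 CPM against 9.03 and 13.4 CPM. The ligand JAG1 had 284 and 388 CPM in mural cells and was also found in endothelial cells, at 199 and 284 CPM, which did not meet 4-fold. Of 34 transcription factors, 20 reached the limit and 2 were called higher than in fibroblasts, beside the same 3.58%. These were MYOCD and MEF2C, a factor of muscle and endothelium (476 and 519 CPM against 46.5 and 13.4 CPM). TBX2, a T-box repressor, had 111 and 165 CPM and was called over the classes of the first comparison, but not over fibroblasts, which had 14.9 and 80.4 CPM.

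Mural cells are known to differ along the vessel. No position along a vessel was measured here, and RGS5 served only to order the cells. The share of RGS5 among the UMIs of the 5 rule genes was computed in each cell. In primary pancreas 1, 245 of 464 cells had a share below 0.1 and 130 of these had no RGS5 UMI, 9 cells lay between 0.4 and 0.5, and 116 cells were at 0.5 or above. Cells with a share of at least 0.5 are called RGS5-led here, the others contractile-led. This is a range of a score and not a type, and 29 cells lay within 0.1 of the limit. RGS5-led cells were 25% of mural cells in primary pancreas 1 (exact 95% interval 21.1% to 29.2%) and 8.89% in primary pancreas 2 (2.48% to 21.2%), which are 116 and 4 cells. Their median depth was 6356 UMIs in primary pancreas 1, against 9543 in contractile-led cells, and thinning to 2000 UMIs gave 24.5% and 6.82%.

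**Figure D3:**
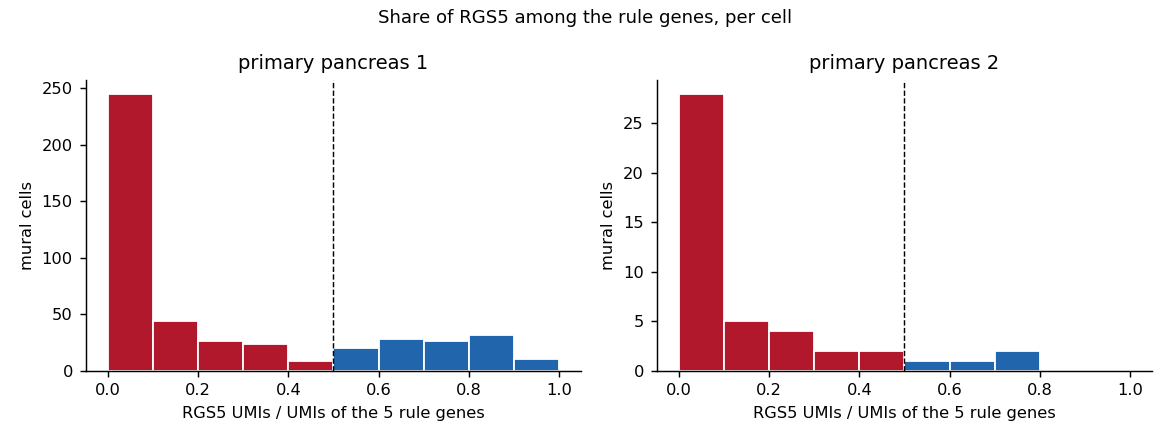
Number of mural cells by the share of RGS5 among the UMIs of the 5 rule genes, in steps of 0.1, for each primary library. Red bars are contractile-led and blue bars RGS5-led cells, split at the dashed line. In primary pancreas 1 the fewest contractile-led cells, 9, lie just below the line, and 245 lie in the lowest step.

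With only 4 RGS5-led cells and 26658 UMIs in primary pancreas 2, genes were ranked in primary pancreas 1, and the values of the second pancreas stand beside them. In primary pancreas 1, 53 of 4271 genes were at least 4-fold higher in RGS5-led cells (1.24%) and 107 at least 4-fold higher in contractile-led cells (2.51%). In both libraries these counts were 13 (0.304%) and 50 (1.17%). Of the 50 genes, 41 had 0 UMIs in its 4 RGS5-led cells, which by a limit of 3 counts allows up to 113 CPM, and 23 of these had no more than that in its contractile-led cells and cannot be compared there, which leaves 27. Of the 13 genes, 3 rested on 3 or fewer UMIs in the 4 cells. Without the endothelial-marked cells the counts in both libraries were 17 and 59, of which 10 and 44 were among the first. Of the 53 and 107 genes, 28 and 76 were at least 2-fold the same way in primary pancreas 2, which is 52.8% and 71.0%, where 12.9% and 25.9% of all genes compared were. By the same limit, 29 of the 76 genes and 627 of the 1105 genes behind the last share cannot be compared in primary pancreas 2, and 10 of the 28 and 136 of the 549 behind the other rested on 3 or fewer UMIs there. In a comparison added after the data had been seen, RGS5-led cells taken alone had 72 genes of 3791 at least 4-fold over every other class in primary pancreas 1, of which 38 were among the 62 called with all mural cells, and contractile-led cells had 73 of 3623, of which 59 were.

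Several genes known from pericytes had higher levels in RGS5-led cells. RGS5 is itself a gene of pericytes, so the direction of such genes was to some extent fixed by the split. Of 23 genes on the pericyte list, of which 16 reached the limit, 5 were at least 4-fold higher there in primary pancreas 1 (beside 1.24% of all genes compared) and 0 in the other direction, with a median log2 ratio of 0.850 beside 0.0900 over all genes compared. In primary pancreas 2 the median was 0.369 beside -0.150, and STEAP4 was the 1 gene called in both libraries. NDUFA4L2, a mitochondrial protein induced by low oxygen, had 426 CPM in RGS5-led cells (interval 385 to 470) and 35.2 CPM in contractile-led cells (29.4 to 41.7) of primary pancreas 1, and 188 and 86.9 CPM in primary pancreas 2. KCNJ8, the pore of a potassium channel gated by ATP, had 528 and 74.9 CPM in primary pancreas 1 and 825 and 233 CPM in primary pancreas 2. Its partner ABCC9 was low, with 43.6 and 6.44 CPM in primary pancreas 1, which is 6.76-fold higher in RGS5-led cells beside 7.05-fold for KCNJ8. It did not reach the limit of 50 CPM, and in primary pancreas 2 it had 0 UMIs in RGS5-led and 10.2 CPM in contractile-led cells. GUCY1A2, a subunit of the nitric oxide receptor guanylate cyclase, had 1831 and 282 CPM in primary pancreas 1 but 1013 and 782 CPM in primary pancreas 2. The metalloreductase STEAP4 had 90.3 and 3.22 CPM, and 375 and 23.0 CPM in primary pancreas 2. ADGRF5, an adhesion receptor, completed the 5 with 310 and 59.6 CPM, and endothelial cells had 418 CPM of it. Its ratio was larger without the endothelial-marked cells, at 286 and 25.3 CPM. In primary pancreas 2 ADGRF5 had 113 and 81.8 CPM, the first from 3 UMIs. HIGD1B and TRPC6 were 3.56-fold and 3.49-fold higher in RGS5-led cells, under the limit, while NOTCH3 was level at 350 and 368 CPM. Not every gene of the pericyte list was higher. CSPG4 had 62.7 CPM in RGS5-led and 70.1 CPM in contractile-led cells of primary pancreas 1, and ANPEP 0 and 1.61 CPM. In primary pancreas 2 CSPG4 had 75.0 and 133 CPM, the first from 2 UMIs.

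The largest ratios on this side further held genes of several roles. The carboxypeptidase CPM (the gene of that name) had 235 CPM in RGS5-led and 14.5 CPM in contractile-led cells. TMEFF2, a transmembrane protein with an EGF-like domain, had 420 and 34.6 CPM, and ADAM22, a member of the disintegrin family, 258 and 19.1 CPM. Both were also higher in the 4 cells of primary pancreas 2, at 1125 and 300 CPM against 112 and 33.2 CPM. PID1 had 583 and 61.8 CPM in primary pancreas 1 but 225 and 133 CPM in primary pancreas 2. The prostaglandin receptor PTGER3 had 149 and 14 CPM, and 37.5 and 23.0 CPM in primary pancreas 2, where the first value is 1 UMI. STEAP4, at 90.3 CPM, was the lowest of these genes in RGS5-led cells. CD36, a fatty acid receptor, had 313 and 28.2 CPM and the sulfotransferase HS3ST5 274 and 22.3 CPM. In primary pancreas 2 they had 1 and 0 UMIs in RGS5-led cells and 56.2 and 30.7 CPM in contractile-led cells, so that neither can be compared there.

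Contractile-led cells held more of several filament genes. Of 31 contractile genes, of which 29 reached the limit, 10 were at least 4-fold higher in them in primary pancreas 1 (beside 2.51% of all genes compared) and 0 in RGS5-led cells, with a median log2 ratio of RGS5-led over contractile-led cells of -1.66 and -1.09. This list is close to the rule genes in kind, and its direction was to some extent fixed by the split. ACTG2, the gamma actin of visceral smooth muscle, had 305 CPM in contractile-led cells and 0 CPM in RGS5-led cells of primary pancreas 1, a count that allows up to 3.19 CPM (3 counts). In primary pancreas 2 it had 110 and 0 CPM, which cannot be compared, as 0 UMIs there allow up to 113 CPM. It was unevenly spread, with UMIs in 119 of 464 cells and 10.9% of them in 1 cell. MYL9 had 1644 CPM in contractile-led and 154 CPM in RGS5-led cells, and FLNA, which crosslinks actin, 1293 and 162 CPM. DSTN, which severs actin filaments, had 2298 and 167 CPM, and 1559 and 413 CPM in primary pancreas 2, where it was under the 4-fold limit. CALD1 and SYNPO2, also of the actin system, were level at 3350 and 3306 CPM and 1483 and 1398 CPM.

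ELN, the elastin of artery walls, had 311 CPM in contractile-led and 14.9 CPM in RGS5-led cells of primary pancreas 1, and 322 and 0 CPM in primary pancreas 2. ADIRF had 2272 and 179 CPM, the calcium-binding protein S100A6 808 and 36.1 CPM, and the stress response gene NIBAN1 820 and 64.8 CPM. GLDN, known from nodes of myelinated nerve, had 224 and 7.44 CPM, with 478 CPM in Schwann cells, and FIBIN 158 and 5.31 CPM. In primary pancreas 2, ADIRF had 2040 CPM in contractile-led and 413 CPM in RGS5-led cells, and NIBAN1 703 and 338 CPM. S100A6, GLDN and FIBIN had 330, 128 and 28.1 CPM in its contractile-led cells and, like ELN, 0 UMIs in the 4 RGS5-led cells, which allows up to 113 CPM by 3 counts and 138 CPM by the exact 95% interval. FIBIN cannot be compared there, and by the second limit nor can GLDN. A further 3 of the 12 largest ratios rested on the endothelial-marked cells. CLDN5 had 477 CPM in contractile-led cells and 1.30 CPM once these cells were removed, SLPI 252 and 0.648 CPM, and the microfibril protein MFAP5 147 and 1.62 CPM. MMP7, a secreted protease, had 55.6% of its mural UMIs in 1 cell.

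To see whether levels shifted stepwise, cells were placed in 3 ranges of the RGS5 share, a division made after the data had been seen. From the lowest range to the highest, NDUFA4L2 had 4.35, 123 and 426 CPM in primary pancreas 1, and KCNJ8 48.6, 150 and 528 CPM. PDGFRB had 97.5, 230 and 343 CPM, and STEAP4 1.81, 7.26 and 90.3 CPM. The middle range lay between the others for each of these genes in primary pancreas 1. In primary pancreas 2, with 28, 13 and 4 cells, this held for KCNJ8 (157, 436 and 825 CPM) and STEAP4 (10.5, 56.9 and 375 CPM). There the middle range was highest for NDUFA4L2 (3.5, 313 and 188 CPM), PDGFRB (168, 455 and 413 CPM) and GUCY1A2 (472, 1622 and 1013 CPM). On the contractile side in primary pancreas 1, MYL9 had 1828, 1118 and 154 CPM, ELN 367, 150 and 14.9 CPM, and ACTG2 379, 93.3 and 0 CPM. MYOCD was about as high in its middle range as in its lowest, with 397, 385 and 64.8 CPM. In primary pancreas 2, MYL9 had 1616, 389 and 150 CPM, ELN 385, 152 and 0 CPM, and MYOCD 245, 190 and 75.0 CPM. ACTG2 had 150, 0 and 0 CPM there. The share is taken over the contractile rule genes too, so the direction on this side was to some extent fixed.

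**Figure D4:**
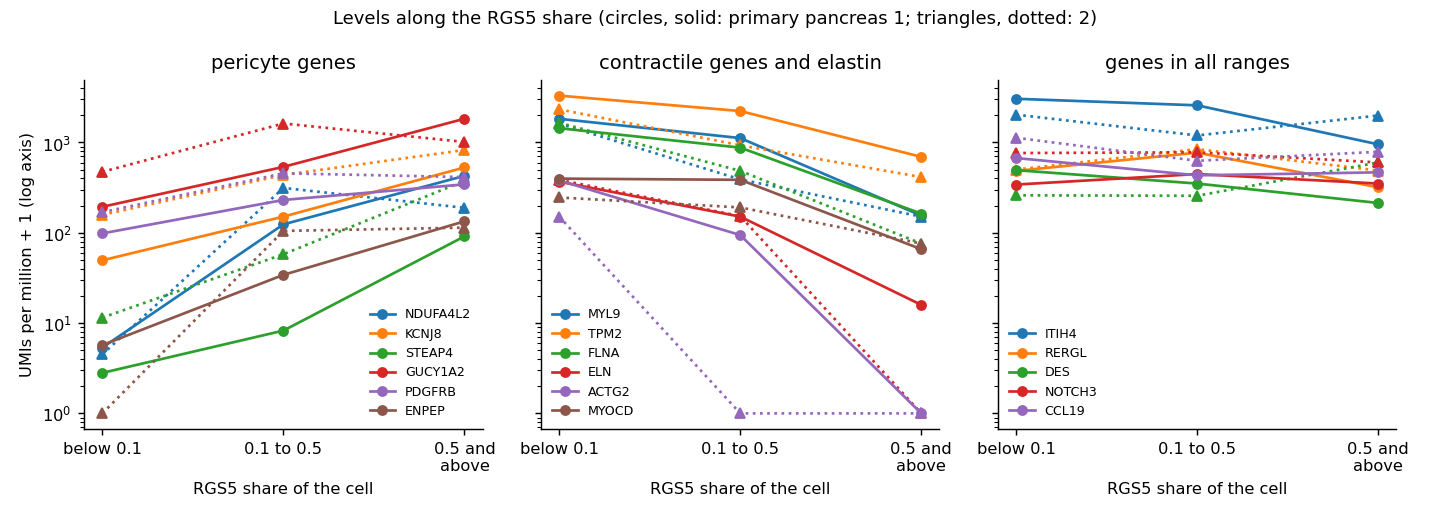
Levels in CPM plus 1 (log axis) over cells with an RGS5 share below 0.1, of 0.1 to 0.5, and of 0.5 and above. Solid lines with circles are primary pancreas 1 (245, 103 and 116 cells), dotted lines with triangles primary pancreas 2 (28, 13 and 4 cells). In primary pancreas 1 NDUFA4L2, KCNJ8, STEAP4, GUCY1A2 and PDGFRB are highest at a share of 0.5 and above, where MYL9, ELN, ACTG2 and MYOCD are lowest.

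ITIH4 and RERGL were present on both sides of the split. ITIH4 had 953 CPM in RGS5-led and 2925 CPM in contractile-led cells of primary pancreas 1, and 1988 and 1807 CPM in primary pancreas 2. After thinning, ITIH4 was found in 71.6% of RGS5-led and 73.6% of contractile-led cells of primary pancreas 1. RERGL had 318 and 558 CPM in primary pancreas 1 and 488 and 593 CPM in primary pancreas 2. Spearman's rho of RGS5 with other genes was taken across cells thinned to 2000 UMIs. Across the 464 cells of primary pancreas 1 it was 0.44 with NDUFA4L2, 0.25 with KCNJ8, 0.16 with ITIH4 and 0.15 with the contractile gene DES. Across the 45 cells of primary pancreas 2 it was 0.49, 0.17, 0.16 and 0.06. With RERGL it was 0.06 and 0.0 in the 2 libraries. With MYH11, ACTA2, TAGLN and CNN1 it was -0.16, -0.09, -0.15 and -0.14 in primary pancreas 1. In primary pancreas 2 these were -0.22, -0.23, -0.15 and -0.32. Over the 3 ranges of the RGS5 share, DES had 493, 350 and 213 CPM in primary pancreas 1. In primary pancreas 2 it had 259, 256 and 600 CPM. The cells of a library share its preparation and were kept in part on their RGS5 UMIs, and these values are a description.

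Receptors that act on vascular tone were compared along the same split. Of 41 genes on this list, 15 reached the limit against fibroblasts, 4 were called higher than in fibroblasts (EDNRB, AVPR1A, RAMP1 and GUCY1B1), beside 3.58% of all genes compared, and 1 lower (LPAR1). Within mural cells of primary pancreas 1, where 16 reached the limit, 2 were at least 4-fold higher in RGS5-led cells, PTGER3 and the angiotensin receptor AGTR1 (115 and 16.1 CPM), and 3 in contractile-led cells, beside 1.24% and 2.51% of all genes compared. These 3 were RAMP1, a subunit of the receptor for the nerve peptide CGRP (144 CPM in contractile-led and 7.44 CPM in RGS5-led cells), VIPR2, a receptor for vasoactive intestinal peptide (74.7 and 5.31 CPM), and the adrenergic receptor ADRA1A (76.5 and 10.6 CPM). RAMP1 and VIPR2 had 153 and 99.7 CPM in contractile-led cells of primary pancreas 2 and 0 CPM in its RGS5-led cells, which allows up to 113 CPM, so that VIPR2 cannot be compared there. ADRA1A had 92 CPM in contractile-led and 37.5 CPM in RGS5-led cells there, the second from 1 UMI. The first lies under the same 113 CPM, so that ADRA1A cannot be compared there either. AGTR1 had 75.0 CPM in RGS5-led cells of that library, from 2 UMIs, and 76.7 CPM in contractile-led cells.

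The endothelin receptors differed in their pattern. EDNRB had 1127 CPM in RGS5-led and 374 CPM in contractile-led cells of primary pancreas 1, 3.01-fold, and 975 and 412 CPM in primary pancreas 2. EDNRA had 209 and 244 CPM in primary pancreas 1 and 1013 and 409 CPM in primary pancreas 2. AVPR1A leaned to RGS5-led cells, at 220 and 74.1 CPM and at 488 and 107 CPM. PRKG1, the cGMP kinase that relaxes smooth muscle, was high on both sides with 3027 and 2126 CPM, and the guanylate cyclase subunit GUCY1B1 had 592 and 309 CPM. The other alpha adrenergic receptors were low, with at most 12.2 CPM in mural cells of primary pancreas 1 and 33.5 CPM in primary pancreas 2.

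Of 25 matched ion channel and calcium genes, 19 reached the limit, 5 were called higher than in fibroblasts (CACNA1C, CACNB2, KCNAB1, TRPC4 and RYR2), beside 3.58% of all genes compared, and 0 lower. The L-type calcium channel CACNA1C had 128 and 146 CPM in mural cells against 18.1 and 0 CPM in fibroblasts, and its subunit CACNB2 920 and 778 CPM against 49.7 and 26.8 CPM. In primary pancreas 1, 3 genes of the list, all of potassium channels, were at least 4-fold higher in contractile-led cells, beside 2.51% of all genes compared. KCNMA1 and KCNMB1, the subunits of the large-conductance calcium-activated potassium channel that limits contraction, had 167 and 69.0 CPM in contractile-led cells of primary pancreas 1 and 13.8 and 1.06 CPM in RGS5-led cells. KCNAB1 had 1005 and 222 CPM. In primary pancreas 2 the 3 genes had 148, 56.2 and 1488 CPM in contractile-led cells and 0, 0 and 338 CPM in RGS5-led cells. As 0 UMIs there allow up to 113 CPM, KCNMB1 cannot be compared in that library.

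**Figure D5:**
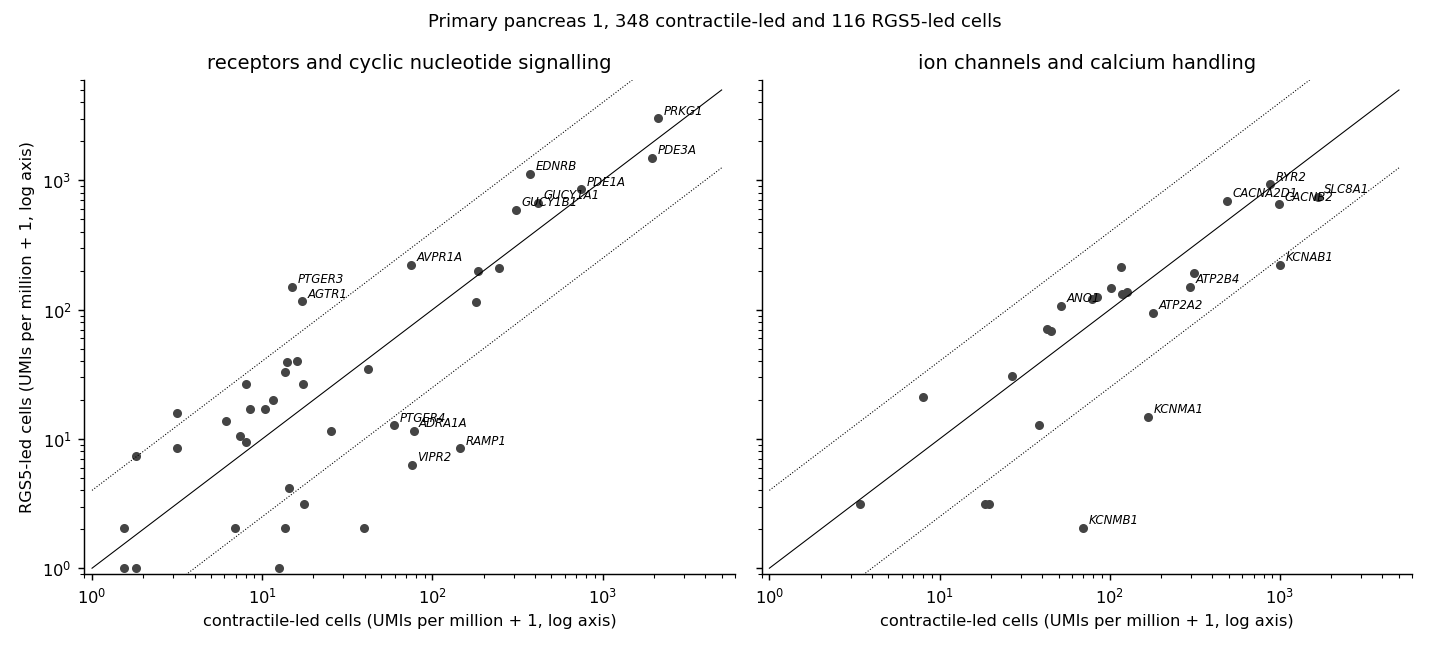
Level of each gene in contractile-led (x axis) and RGS5-led cells (y axis) of primary pancreas 1, in CPM plus 1 on log axes, for receptors and cyclic nucleotide signalling (left) and ion channels and calcium handling (right). The solid line marks equal levels and the dotted lines 4-fold. PTGER3 and AGTR1 lie above the upper dotted line, and RAMP1, VIPR2, KCNMA1 and KCNMB1 far below the lower one.

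Early response genes, which dissociation is known to induce, differed between the libraries. The 16 matched genes summed to 12056 CPM in mural cells of primary pancreas 1 and 1113 CPM in primary pancreas 2, with FOS at 4211 and 218 CPM. Fibroblasts of the same libraries had 7092 and 1032 CPM and endothelial cells 7021 and 3491 CPM. Of the 16 genes, 15 reached the limit in each comparison above and 0 were called. Of all genes compared, 1.69% were called over every class, and 3.58% higher and 3.14% lower than in fibroblasts. The part of early response genes in the results was not tested. On a list of 9 matched plasma proteins and innate factors, 4 reached the limit over every class and 5 against fibroblasts. ITIH4 was the 1 gene called in either comparison, beside the same 1.69% and 3.58%. Its relative ITIH3 had 25.1 and 23.9 CPM.

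RNA of other cells was present in the mural sums. Endocrine markers, INS above all, summed to 180 CPM in mural cells of primary pancreas 1 and 14511 CPM in those of primary pancreas 2, while immune cells held 196 and 10444 CPM of them. Acinar markers summed to 201 and 385 CPM in mural cells of primary pancreas 1 and 2, ductal markers to 245 and 160 CPM, immune markers to 144 and 43.1 CPM and Schwann markers to 65.8 and 12 CPM. The 7 endothelial markers, all with UMIs in mural cells, summed to 819 and 538 CPM, and to 1081 CPM in RGS5-led and 753 CPM in contractile-led cells of primary pancreas 1. In primary pancreas 2 these sums went the other way, at 225 and 560 CPM. Schwann markers summed to 244 CPM in RGS5-led and 20.7 CPM in contractile-led cells of primary pancreas 1, and to 75.0 and 7.67 CPM in primary pancreas 2, and their part in the split was not tested. Of the endothelial markers, EGFL7 and VWF were called higher than in fibroblasts, with 93.5 and 71.4 CPM in mural cells of primary pancreas 1 and 1.31 and 1.04 CPM once the endothelial-marked cells were removed. No acinar, ductal, endocrine, immune, Schwann, Cajal or mesothelial marker was called in both libraries, but few could be. Against fibroblasts, 2 acinar, 1 ductal, 1 immune, 1 Schwann and 2 Cajal markers reached the limit, and 0 endocrine or mesothelial ones. In primary pancreas 1 alone, 1 Schwann marker was at least 4-fold higher and 1 ductal marker at least 4-fold lower in RGS5-led cells. The 3 interstitial cell of Cajal markers had 196 and 328 CPM and the 2 mesothelial markers 3.43 and 2.39 CPM. The transgene features had 0 UMIs in mural cells of either library.

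Organoid cultures held very little of this programme. In PPDO 1 and 2, 9 of 8995 and 21 of 7457 barcodes met the rule, nearly all through TAGLN, which gave 171 and 332 UMIs in these cells while RGS5 and ACTA2 gave 0. RERGL had 0 UMIs over all cells of either library, which allows up to 0.00995 and 0.0114 CPM. ITIH4 had 0.0995 and 0.0912 CPM and RGS5 0.103 and 0.0722 CPM. Some genes of mural cells were also found in organoid cells. NOTCH3 had 74.8 and 79.2 CPM in PPDO, CALD1 149 and 141 CPM, and NDUFA4L2 161 and 316 CPM, where all mural cells had 114 and 93.3 CPM of it.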

How the data were processed

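Data of 4 pig 10x Chromium 3' v3.1 libraries were used, 2 of PPDO and 2 of primary pancreas, grouped by their titles. The authors sorted live cells and counted molecules with Cell Ranger (7.1.0 per the file headers) against an in-house pig annotation. The submitters' processing notes name Sscrofa11.1 and GRCh38. Per barcode, the deposited matrices give uncorrected UMI counts of features, to which SoupX, used in the study, was not applied here, and the other deposited tables hold names. Features were summed per gene (30282 identifiers, 8 transgene features left out), and 317 of 332 genes of 22 lists were matched. The lists and the members were chosen with earlier results of these data known. Classes were set by UMIs of marker genes. Genes named are those of the lists, the 25 with the largest ratio over every class, 15 per direction against fibroblasts and 12 per direction along the RGS5 split, of which some are not reported here. It was assumed, for the isolation only, that replicate numbers follow the order of the pancreata in the study's methods.

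Total depth was 87043349 and 138918005 UMIs in primary pancreas and 366263504 and 316018482 in PPDO. Scrublet ran through Scanpy 1.11.5, TMM factors came from edgeR 4.0.16, and the computation of the calls was checked on simulated counts. Shares carry exact Clopper-Pearson intervals and levels exact Poisson intervals at 95%, while the level that 0 UMIs allow was set at 3 counts of the class total. Alternatives were the CPM added, fold, minimum level, per-cell mean, TMM, totals, doublets, marker minimum and each library left out.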

Additional observations from a re-analysis of the deposited data

How the results depend on the processing

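No paired analysis was possible because no result comes from a test, the cells having been chosen by the values compared, and the ratios, each taken within 1 library, are themselves paired. The number of mural cells (509) stayed between 431 and 554 with at least 20 or 5 marker UMIs, the filters of the study or with doublets or endothelial-marked cells removed, and the mean share of RGS5-led cells (16.9% ± 11.4, SD, n = 2) between 12% and 23.2% with the limit at other shares or after thinning. Without either library it was 8.89% or 25%.

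Counts of called genes moved with the library left out, the fold and the CPM added. In the order over every class, higher and lower than fibroblasts, and higher and lower in RGS5-led cells, they were 62, 164, 144, 13 and 50. They were 29, 57, 50, 3 and 9 with 50 CPM added, 156, 409, 389, 123 and 191 at 2-fold, and 27, 65, 53, 1 and 14 at 8-fold. With 1 CPM added the last 2 were 23 and 80. Genes higher in RGS5-led cells were 5 with TMM factors and 5 with at least 20 marker UMIs. Without 1 library, over both choices, they were 68 to 270, 214 to 560, 262 to 397, 53 to 289 and 107 to 650, the larger values being those of primary pancreas 2 alone. Chosen after seeing the data, primary pancreas 1 alone at 8-fold gave 82 and 106 against fibroblasts. All other alternatives stayed within 1.5 times.

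Among the genes named by the size of their ratio, the ratio changed sign in 3 cases. CLDN5 (RGS5-led over contractile-led cells) turned from a log2 ratio of -3.47 to 0.31 with endothelial-marked cells removed, and HS3ST5 and CD36 from 3.14 and 3.08 in primary pancreas 1 to -2.02 and -0.48 without it. The last 2 values rest on 0 and 1 UMIs in the 4 RGS5-led cells of primary pancreas 2 and are no measured turn. The 4 RGS5-led cells and 8 fibroblasts of primary pancreas 2 limit what it can show, as 1 UMI in them exceeds the 10 CPM added.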
